A study of Mus musculus with 4 samples.

Results

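The phagocyte NADPH oxidase genes examined here were Cybb, Cyba, Ncf1, Ncf4, Rac1, Rac2 and Hvcn1, taken as a family by gene symbol. All 7 had values, among 17823 genes with values in mouse blood RNA. Expression was compared between naringenin (Nar)-treated and control C57BL/6 mice, labelled adult and 12 months old by the methods of the study. Nar, a flavonoid, was injected into the tail vein, and control mice received phosphate-buffered saline (PBS), both over 30 days. No transgene or deletion was named for either group. Each group had 2 blood libraries, numbered 1 and 3 and here called Ctrl 1, Ctrl 3, Nar 1 and Nar 3.

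The phagocyte oxidase makes superoxide, the starting point of the respiratory burst with which neutrophils and macrophages attack microbes. In the membrane, Cybb (gp91phox, also called Nox2) carries the electrons from NADPH to oxygen, and Cyba (p22phox) is its stabilizing partner. In the resting cell the organizer Ncf1 (p47phox) and Ncf4 (p40phox) wait in the cytosol, and on stimulation they move to the membrane together with a Rac GTPase. Rac2 is largely a protein of blood cells, while Rac1 is found in most cell types. Hvcn1 is a voltage-gated proton channel that lets out the protons left behind by the electron transfer, and it is also known from B cells.

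Messenger RNA of whole blood was measured as FPKM, fragments per kilobase of transcript scaled to the mapped fragments of the library, as deposited by the authors. The number of reads behind these values is unknown, so no counting error can be given. Haemoglobin genes made up 92.6% to 95.1% of the summed FPKM in controls and 95.7% to 96.4% with Nar, as blood should show, and every other gene shares the remainder. Differences were taken on log2(FPKM + 0.1), which understates changes of low genes, over the 5339 genes with a mean of at least 0.5 FPKM. Genes were tested with limma, with Benjamini-Hochberg adjustment over all of them, and called at an adjusted p under 0.05 with more than a 2-fold change. With Nar, 39.3% of tested genes were called lower and 0.15% higher, and over all of them the log2 fold changes had a median of -1.07. Median-of-ratios scaling, under which a typical gene comes out equal across libraries, moved that median to -0.06 and left 24 genes called. For any single gene, the smallest two-sided p that exact permutation allows with 2 libraries a group is 0.33. The labels do not say whether each library came from a separate mouse, so the p-values measure the spread between these libraries only.

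In GRCm38, with GENCODE M21 gene spans, Cybb lies on chromosome X at 9435252 to 9487771 and Cyba on chromosome 8 at 122424776 to 122432930. Ncf1 is at 134220053 to 134229625, Rac1 at 143503634 to 143528036 and Hvcn1 at 122206804 to 122242297, all on chromosome 5. Chromosome 15 holds Ncf4 at 78244801 to 78262580 and Rac2 at 78559167 to 78572783. All are protein-coding. Exons of Hvcn1 share 1574 of 3563 bases with Tctn1, those of Rac1 share 2309 of 4496 with Daglb, and those of Ncf1 share 408 of 3663 with Gtf2ird2, each on the opposite strand. No source used here says that strand was used in counting, so reads in these stretches cannot be assigned with certainty. The FPKM of these partners was low, at 0.58 and 0.65 in controls against 0.11 and 0.15 with Nar for Tctn1, 0.72 and 0.34 against 0.14 and 0.15 for Daglb, and 0.51 and 0.13 against 0.09 and 0.05 for Gtf2ird2.

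Promoter sequences from RefSeq (GRCm38.p6) matched 3 of the 7 genes, Cybb, Cyba and Ncf1. Only these 3 could be shown. The genes lie on different chromosomes and were all lower with Nar, as were Ncf4 and Rac2, which had no matching sequence. Each stretch is the 250 bases before the annotated start, from 5′ to 3′ on the strand of the gene, which is the minus strand for each. The stretches lie at chrX:9469325-9469574 for Cybb, chr8:122432941-122433190 for Cyba and chr5:134229626-134229875 for Ncf1. Capitals mark matches to the CCAAT box (CCAAT), the PU.1 core (GAGGAA), the TATA box (TATAAA) or the GC box (GGGCGG), on either strand. PU.1 is a transcription factor of myeloid and B cells.
Cybb: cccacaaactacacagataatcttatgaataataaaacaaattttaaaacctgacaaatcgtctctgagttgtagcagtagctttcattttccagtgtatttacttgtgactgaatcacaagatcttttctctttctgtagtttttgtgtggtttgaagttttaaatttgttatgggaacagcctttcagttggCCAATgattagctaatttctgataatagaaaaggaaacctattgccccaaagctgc
Cyba: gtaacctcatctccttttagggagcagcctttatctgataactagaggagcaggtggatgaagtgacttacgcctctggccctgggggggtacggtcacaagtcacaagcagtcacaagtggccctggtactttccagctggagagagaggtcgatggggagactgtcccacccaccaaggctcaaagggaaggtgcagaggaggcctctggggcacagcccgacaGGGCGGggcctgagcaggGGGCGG
Ncf1: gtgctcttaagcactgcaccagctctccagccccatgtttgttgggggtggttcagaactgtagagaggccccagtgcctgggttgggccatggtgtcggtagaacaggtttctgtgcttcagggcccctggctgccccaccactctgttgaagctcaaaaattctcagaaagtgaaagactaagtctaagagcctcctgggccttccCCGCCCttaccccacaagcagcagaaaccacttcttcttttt

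The Cybb stretch held a CCAAT box 56 to 52 bases before the start. A PU.1 core, read on the opposite strand, lay at bases 10 to 15 after that start, beyond the stretch shown. Cyba had a pair of GC boxes, 24 to 19 and 6 to 1 bases before the start, and Ncf1 had one on the opposite strand, 42 to 37 bases before it. No motif of the 4 was shared by all 3 genes in this window. Of 32851 RefSeq promoters, counted with 50 bases after the start, 37.4% held a CCAAT box, 28.3% a PU.1 core, 13.6% a TATA box and 35.7% a GC box, and the motifs do not overlap one another. The GC content of the stretches was 34% for Cybb, 60% for Cyba and 54.4% for Ncf1, beside a median of 52.4% over all promoters. None of the 3 stretches overlapped an exon of GENCODE. That of Cybb fell within the span of Cybb itself, which has a longer transcript, and that of Cyba within the span of Gm20388, annotated on the opposite strand.

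Most of the oxidase genes were lower with Nar. The subunits Cybb, Cyba, Ncf1, Ncf4 and Rac2 were lower in both Nar libraries and passed the test, with log2 fold changes from -2.04 to -1.66. Rac1 was lower by less and did not pass, and Hvcn1 was at about the same FPKM in both groups. In all, 5 of 7 genes were called lower and 0 higher, beside 39.3% of all tested genes called lower. Values of both Nar libraries lay below both controls for 6 of the 7, beside 78.3% of all tested genes.

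**Figure D1:**
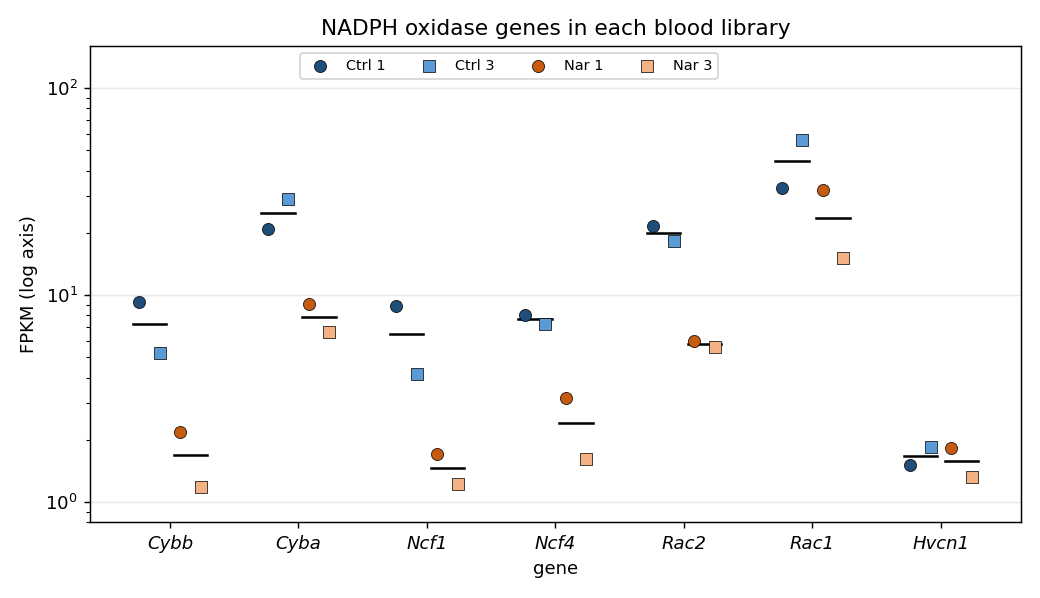
FPKM (log axis) of the 7 oxidase genes in each blood library, with circles for replicate 1, squares for replicate 3, blue for Ctrl, orange for Nar and black bars for group means. Cybb, Cyba, Ncf1, Ncf4 and Rac2 are well apart between the groups, Rac1 is barely apart at 32.87 FPKM in Ctrl 1 and 32.12 in Nar 1, and Hvcn1 overlaps.

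The membrane pair was lower with Nar. For Cybb (NCBI Gene 13058), Ctrl 1 and Ctrl 3 had 9.27 and 5.24 FPKM, and Nar 1 and Nar 3 had 2.19 and 1.19. The groups were apart, and Nar 3 was the lowest library. The group means were 7.26 ± 2.85 FPKM (SD, n = 2) for Ctrl and 1.69 ± 0.707 FPKM (SD, n = 2) for Nar, which is 23.3% of the control mean. On the log2 scale the change was -2.04 ± 0.488 (standard error), and it passed with an adjusted p of 0.0201 in limma. Its partner Cyba (NCBI Gene 13057) had 20.8 and 29.2 FPKM in Ctrl 1 and Ctrl 3, and 9.05 and 6.61 FPKM in Nar 1 and Nar 3. Here the order of the controls was the reverse of that for Cybb, and the groups were again apart. Cyba changed by -1.66 ± 0.502 (standard error) on the log2 scale, with an adjusted p of 0.0339 in limma, and its mean with Nar was 31.3% of that in controls.

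Per length, Cyba exceeded Cybb in every library. On log2 (FPKM + 0.1), the ratio of Cybb to Cyba was -1.16 in Ctrl 1 and -2.46 in Ctrl 3, beside -2.00 in Nar 1 and -2.38 in Nar 3. This ratio within a library does not depend on how libraries are scaled, and it overlapped between the groups, with a larger gap between the controls than between the Nar libraries.

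Both cytosolic regulators of the family, Ncf1 and Ncf4, were lower with Nar. Ncf1 (NCBI Gene 17969), which carries the others to the membrane once phosphorylated, had 8.86 and 4.17 FPKM in Ctrl 1 and Ctrl 3, and 1.70 and 1.23 FPKM in Nar 1 and Nar 3. Ctrl 1 stood above Ctrl 3, as for Cybb, and both Nar libraries lay below both. Its log2 fold change was -2.00 with a standard error of 0.48 (adjusted p = 0.0201 in limma), and the Nar mean was 22.5% of the control mean. Ncf4 (NCBI Gene 17972), which binds a phosphoinositide of the phagosome membrane, had 7.99 and 7.29 FPKM in Ctrl 1 and Ctrl 3, and 3.19 and 1.61 FPKM in Nar 1 and Nar 3. Its controls were close together and its Nar libraries less so, with no overlap. For Ncf4 the log2 fold change was -1.70 with a standard error of 0.475 (adjusted p = 0.0278 in limma).

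The GTPases Rac2 and Rac1 gave different test results. For Rac2 (NCBI Gene 19354), Ctrl 1 and Ctrl 3 had 21.55 and 18.35 FPKM, and Nar 1 and Nar 3 had 5.98 and 5.62. Replicates were close in both groups, and the Nar mean was 29.1% of the control mean. Rac2 changed by -1.76 ± 0.472 (standard error) on the log2 scale, with an adjusted p of 0.0254 in limma. Rac1 (NCBI Gene 19353) was the most highly expressed of the 7 in every library, with 32.87 and 56.47 FPKM in Ctrl 1 and Ctrl 3, and 32.12 and 15.07 FPKM in Nar 1 and Nar 3. Nar 1 lay just under Ctrl 1, and each group spanned a wide range. With a log2 fold change of -0.97 and a standard error of 0.583, Rac1 did not pass (adjusted p = 0.176 in limma), and it lay 0.11 above the median of all tested genes. The log2 ratio of Rac1 to Rac2 was 0.61 and 1.62 in the controls and 2.41 and 1.41 in Nar 1 and Nar 3, so the groups overlapped and a different change of the 2 GTPases was not shown.

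The 7 platelet marker genes summed to 687 and 2182 FPKM in Ctrl 1 and Ctrl 3, and to 583 and 449 FPKM in Nar 1 and Nar 3. The order of libraries, from Ctrl 3, the highest, through Ctrl 1 and Nar 1 to Nar 3, the lowest, was that of 2 of the 7 oxidase genes, Rac1 and Cyba, and of 29% of all tested genes. All 7 were detected, Pf4 highest, and the part of platelet RNA in these values was not tested.

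Hvcn1 (NCBI Gene 74096), the proton channel, had 1.51 and 1.85 FPKM in Ctrl 1 and Ctrl 3, and 1.83 and 1.33 FPKM in Nar 1 and Nar 3. The groups overlapped, and the lowest and the highest library differed little. The group means were 1.68 ± 0.24 FPKM (SD, n = 2) for Ctrl and 1.58 ± 0.354 FPKM (SD, n = 2) for Nar. On the log2 scale the difference was -0.09 ± 0.37 (standard error), with an adjusted p of 0.831 in limma. Among all tested genes that value lay at percentile 92.6, while Cybb lay at percentile 6.71 and Ncf1 at 7.14. Under median-of-ratios scaling Hvcn1 had a log2 fold change of 0.95, with both Nar libraries above both controls (as for 18.6% of tested genes), and it did not pass (limma adjusted p = 0.256). Its direction therefore depended on the scaling.

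Ranks by FPKM among the 5339 tested genes, where rank 1 is the highest, need no scaling either. Cybb ranked 752 in Ctrl 1 and 1400 in Ctrl 3, and 1455 in Nar 1 and 1903 in Nar 3. Hvcn1 moved up the order, from 3115 and 2776 in controls to 1635 and 1758 with Nar. Rac1 ranked 288 and 272 in controls and 238 and 363 with Nar, overlapping. In controls Hvcn1 was the lowest of the 7 by FPKM, while in Nar 3 it stood above Ncf1 and Cybb and in Nar 1 above Ncf1.

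Ratios between the genes within a library were compared as well. Of the 21 pairs, 9 had log2 ratios that did not overlap between the groups, and 6 of these were the 6 pairs that include Hvcn1. The others set Cybb, Cyba and Ncf4 against Rac1. Over ratios of one of the 7 to any other tested gene, 56.4% did not overlap, so the number of pairs is no larger than that of other genes. That share was not counted for Hvcn1 alone, whose log2 fold change lay at percentile 92.6 of all tested genes. Cybb exceeded Hvcn1 by a log2 ratio of 2.54 in Ctrl 1 and 1.45 in Ctrl 3, against 0.25 in Nar 1 and -0.15 in Nar 3. From controls to Nar, the mean log2 ratio to Hvcn1 fell by 1.95 for Cybb, by 1.91 for Ncf1, by 1.67 for Rac2, by 1.61 for Ncf4, by 1.57 for Cyba and by 0.87 for Rac1. Among Cybb, Cyba, Ncf1, Ncf4 and Rac2 themselves the ratios overlapped in all pairs, and their mean differences ran from -0.38 to 0.34.

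**Figure D2:**
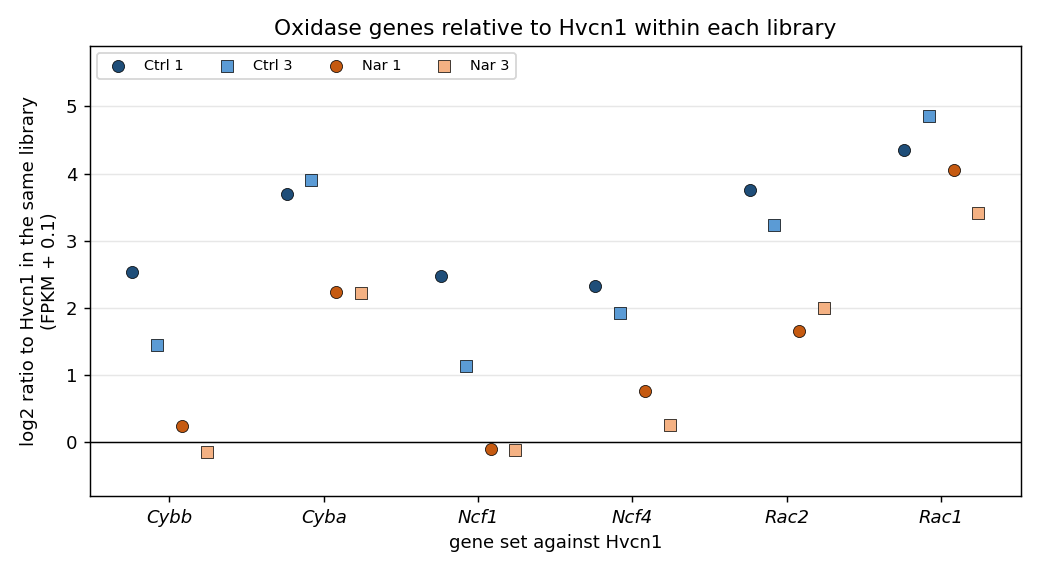
Log2 ratio of each oxidase gene to Hvcn1 within each library, computed on FPKM + 0.1, with circles for replicate 1, squares for replicate 3, blue for Ctrl and orange for Nar. Every gene has both Nar libraries below both controls, with Cybb at 2.54 and 1.45 in controls against 0.25 and -0.15 with Nar.

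The size of each fall depended on what the libraries were scaled to. Relative to the all-gene median, the log2 fold changes were -0.97 for Cybb, -0.93 for Ncf1, -0.69 for Rac2, -0.63 for Ncf4 and -0.59 for Cyba. After median-of-ratios scaling, both Nar libraries were still below both controls for these 5, beside 25% of all tested genes, with log2 fold changes from -0.97 to -0.56. None of the 7 then passed in limma, with adjusted p-values from 0.256 to 0.981, and 1 of the 7, Hvcn1, had an unadjusted p under 0.05, beside 745 of the 5339 tested genes. On that scale 0.356% of tested genes were called lower. When haemoglobin genes were taken out before rescaling, 5.01% of genes were called lower and 0 of the 7, while 5 of the 7 had an unadjusted p under 0.05, beside 1147 of 5329 genes, and the log2 fold change of Cybb was -1.50 (limma adjusted p = 0.0871).

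**Figure D3:**
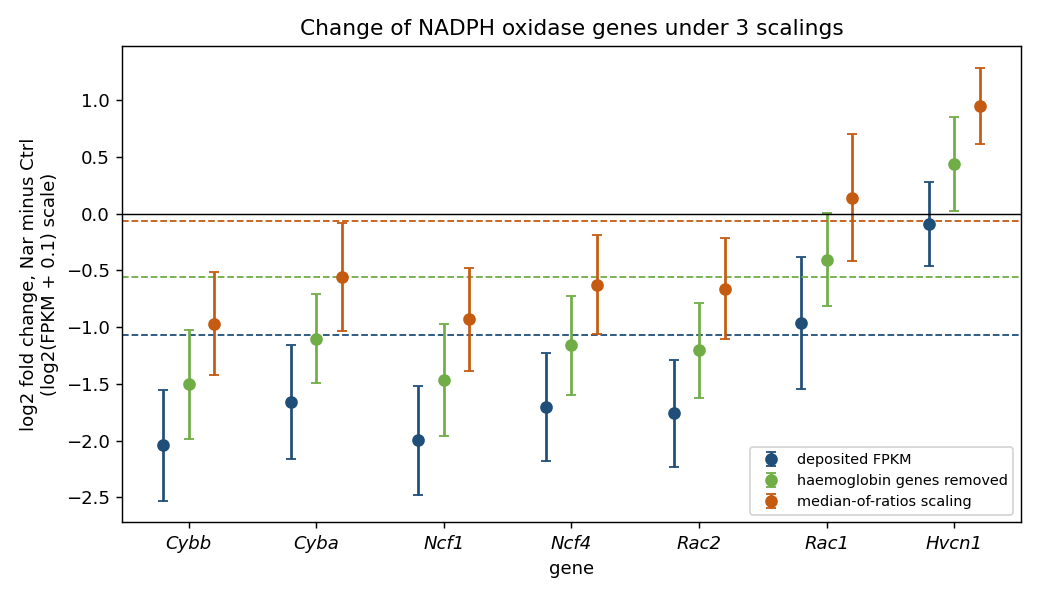
Log2 fold change, Nar minus Ctrl, of each oxidase gene under 3 scalings, with bars of 1 standard error from limma and dashed lines at the median of all tested genes on the same scale. Cybb goes from -2.04 on deposited FPKM to -0.97 after median-of-ratios scaling and Hvcn1 from -0.09 to 0.95, so their order is kept while the level moves.

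The 5 calls needed all 4 libraries. Each fit with a library left out has 1 library in one group, which is assumed to vary as the other group does, and so has less power by construction. Leaving out any 1 of them, Ctrl 1, Ctrl 3, Nar 1 or Nar 3, left 0 of the 7 called, with limma adjusted p-values of the 5 from 0.0662 to 0.283, while their log2 fold changes stayed between -2.53 and -1.23. The same step reduced the 2106 genes called in all to 0 without Ctrl 1 or Ctrl 3, to 258 without Nar 1 and to 213 without Nar 3.

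Genes around the oxidase were taken from 6 lists, of which 39 genes could be tested. Of these, 26 were called lower and 0 higher, beside 39.3% of all tested genes called lower. With haemoglobin genes removed 7 were called lower, beside 5.01% of all tested genes, and under median-of-ratios scaling 0, beside 0.356%. The lists were strongest in change among receptors and mixed among relatives of Rac.

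Assembly partners gave mixed results. Cybc1, a chaperone needed for the Cybb and Cyba pair, had 2.67 and 1.98 FPKM in controls and 0.72 and 0.57 with Nar, a log2 fold change of -1.70 (limma adjusted p = 0.0146). Rap1a and Rap1b, small GTPases of many cell types, had log2 fold changes of -0.93 and -0.96 and did not pass (limma adjusted p = 0.166 and 0.149).

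Of 9 other oxidase genes listed, 6 had values, all near 0. Of Nox1, Nox4, Duox2, Noxa1, Noxo1 and Duoxa1, the highest value in any library was 0.09 FPKM, for Noxo1 in Ctrl 3, and 3 of these genes were listed at 0 throughout. None could be tested.

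Among relatives of Rac, Rhog was called lower, with a log2 fold change of -1.61 (limma adjusted p = 0.0432). Cdc42 and Rhoa, which steer the actin skeleton in nearly every cell, had log2 fold changes of -1.22 and -0.97 and did not pass (limma adjusted p = 0.076 and 0.124). Rac3 was listed at 0.04 FPKM in Ctrl 3 and at 0 elsewhere. Exchange factors, GTPase-activating proteins and the GDI proteins, which load Rac with GTP, switch it off or hold it in the cytosol, gave 6 of 11 called lower and 0 higher, beside 39.3% of all tested genes called lower, and 0 of 11 called under median-of-ratios scaling or with haemoglobin genes removed. Prex1 (-1.69), Abr (-1.62) and Vav1 (-1.44) passed, while Arhgdib, the abundant GDI of leukocytes, had -1.53 on the log2 scale and did not (limma adjusted p = 0.0517).

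Enzymes that signal to the oxidase, among them protein kinase C forms that phosphorylate Ncf1, gave 9 of 12 called lower and 0 higher, against the same share of all tested genes, 39.3%. None of the 12 was called under either other scaling. The largest log2 fold changes were those of Akt1 (-1.89), Mapk14 (-1.76), Prkcd (-1.70) and Pik3cd (-1.65), with limma adjusted p-values of 0.016, 0.0326, 0.0288 and 0.0251.

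Receptors that set off the burst were lower by more than the oxidase genes themselves. Of 9 tested, 8 were called lower and 0 higher (39.3% of all tested genes were called lower). With haemoglobin genes removed 6 receptors were called lower, beside 5.01% of all tested genes, and under median-of-ratios scaling 0, beside 0.356%. On the deposited scale they had a median log2 fold change of -2.60 beside -1.70 for the 7 oxidase genes. Fcgr3, an IgG receptor chain, had a log2 fold change of -2.91, Itgam, the alpha chain of a complement receptor, -2.88, the formyl peptide receptor Fpr2 -2.82 and the beta-glucan receptor Clec7a -2.74, with limma adjusted p-values of 0.0051, 0.0048, 0.0045 and 0.0049. Itgb2, the integrin beta chain shared by leukocytes, had -1.28 and did not pass (limma adjusted p = 0.0782). The medians describe the lists and were not tested against each other.

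**Figure D4:**
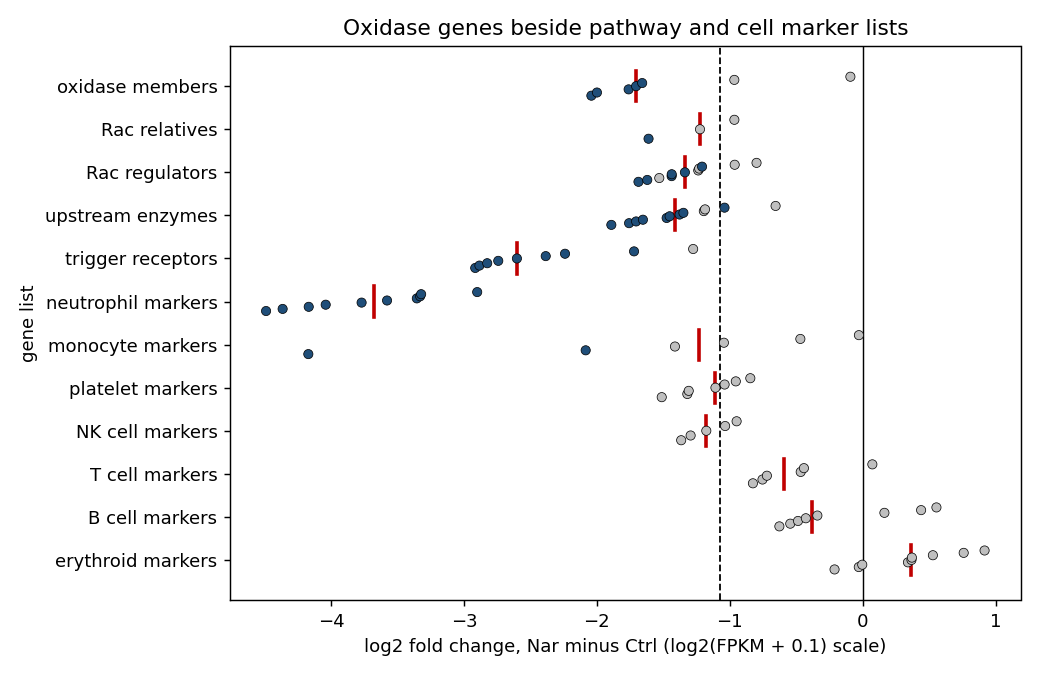
Log2 fold change of each tested gene, Nar minus Ctrl, in the oxidase family, 4 pathway lists and 7 cell marker lists, with dark points for genes called in limma, red bars for list medians and a dashed line at the median of all tested genes. The oxidase median of -1.70 lies between those of neutrophil markers at -3.67 and B cell markers at -0.38.

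Markers of blood cell types differed between the groups beside the oxidase genes. All 10 neutrophil markers were called lower on the deposited scale (39.3% of all tested genes were) and 10 with haemoglobin genes removed (5.01%). Under median-of-ratios scaling 3 of them were (0.356%). S100a9, S100a8 and Retnlg were highest. The summed FPKM of the neutrophil markers ran from 1352 to 1623 in controls and from 98.2 to 155 with Nar. Of 6 tested monocyte markers, 2 were called lower, Ly6c2 and Ccr2 (1 with haemoglobin genes removed and 0 under median-of-ratios scaling), beside the same shares. The monocyte sums ran from 50.8 to 51.2 in controls and from 8.3 to 13 with Nar. Ly6c2 alone had 27.2 and 30.81 FPKM in Ctrl 1 and Ctrl 3, and 2.70 and 0.83 in Nar 1 and Nar 3. Csf1r, Klf2, Cx3cr1 and Cd300e, with log2 fold changes of -1.41, -1.04, -0.47 and -0.03, did not pass, and the list median of -1.23 was near that of all tested genes. None of 8 B cell markers passed, with Cd79a and Cd79b highest and sums from 31.3 to 41.2 in controls and from 31.2 to 32.9 with Nar, and 0 of 6 tested T cell markers and 0 of 5 tested natural killer (NK) cell markers passed. The sums were 5.35 to 8.02 and 3.88 to 5.04 for T cells, with Cd8b1, Cd3g and Cd3e highest, and 5.86 to 12.1 and 2.65 to 5.41 for NK cells, with Nkg7, Prf1 and Klrd1 highest. Neither 7 platelet markers nor 9 tested erythroid markers gave a call on the deposited scale, the latter with a median log2 fold change of 0.37 and sums from 8984 to 10935 in controls and from 10124 to 10993 with Nar. With haemoglobin genes removed, 1 erythroid marker was called higher, beside 14 of all 5329 tested genes. The 5 eosinophil markers were near 0, the highest being 0.23 FPKM, and were not tested. In the lists without a call, 4 of 35 tested markers had an unadjusted p under 0.05 in limma, beside 3036 of all 5339 tested genes, all 4 lower with Nar, namely Cd8b1, Ncr1, Klrb1c and Pf4. No marker of the lists with calls was at 0 in all libraries, and in blood RNA, fewer cells of a type and less RNA per cell cannot be told apart.

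Log2 ratios of the oxidase genes to these sums were taken in the same library. Ratios to the neutrophil sum were higher in both Nar libraries than in both controls for each oxidase gene. In Ctrl 1, S100a9, S100a8 and Retnlg had 724, 447 and 255 FPKM of a neutrophil sum of 1623. The log2 ratio of Cybb to the neutrophil sum was -7.45 and -8.01 for Ctrl against -5.49 and -7.02 for Nar, higher in both Nar libraries. Its ratio to the monocyte sum overlapped between the groups, at -2.46 and -3.28 in controls and -2.57 and -2.80 with Nar. Without Ly6c2, a step chosen after its values were seen, that ratio was -1.37 and -1.93 in controls and -2.23 and -2.65 with Nar, and the groups were apart. With Ly6c2 kept, the monocyte ratios of Cyba, Ncf4, Rac1 and Rac2 were apart and higher with Nar, and that of Ncf1 overlapped. The ratio of Cybb to the platelet sum also overlapped, at -6.21 and -8.70 in controls and -8.06 and -8.56 with Nar. To the B cell sum it was -2.15 and -2.58 in controls and -3.83 and -4.79 with Nar. For Hvcn1 the ratio to the B cell sum overlapped, at -4.77 and -4.08 in controls and -4.09 and -4.63 with Nar, as did those to the T cell sum, at -2.41 and -1.53 against -1.46 and -1.54. The Hvcn1 ratios to the monocyte, NK cell and platelet sums were apart and higher in both Nar libraries, the last at -8.83 and -10.2 against -8.31 and -8.40. The Hvcn1 ratio to the erythroid sum was -12.54 and -12.53 in controls and -12.55 and -12.89 with Nar. There Nar 1 lay barely below the controls. Its ratio to the neutrophil sum was -10.1 and -9.51 for Ctrl against -5.75 and -6.86 for Nar. The part of any cell type in the oxidase results was not tested.

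Patterns over the 4 libraries were compared by the distance between log2 values centred on the mean of each gene. Among the 7, Cybb lay nearest to Ncf1, at a distance of 0.334, and farthest from Hvcn1, at 2.11. Outside the family the 5 genes nearest to Cybb were Sorl1, Gm1966, Scarb1, Hsd11b1 and Ptprc, at distances from 0.135 to 0.206. Ptprc encodes the leukocyte surface phosphatase CD45 and had 18.13 and 9.29 FPKM in controls and 4.81 and 2.49 with Nar. Nearest to Hvcn1 were Bnip3l, Hypk, Ube2h, Sec62 and Galnt10, at distances from 0.0468 to 0.0984. Bnip3l, a mitophagy receptor known from maturing red cells, had 385 and 463 FPKM in controls and 444 and 331 with Nar, rising and falling between libraries as Hvcn1 did. Many of the 5339 genes can match a profile of 4 values closely, so these names describe likeness only.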

How the data were processed

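Blood RNA-seq libraries of control (2 libraries) and Nar-treated (2 libraries) mice were used, grouped by their sample titles. The file as deposited holds FPKM values with 2 decimals, made by the authors. Their methods name bowtie-2 as the aligner of the reads, while the submitters' processing notes name TopHat2, Cufflinks and GRCm38, with no role given. All 4 columns were matched to a library and 0 were left over. Of 23136 genes listed, 5313 did not have a value in all 4 libraries. Depth is unknown, so precision is given only as the spread between libraries.

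log2(FPKM + 0.1) of the 5339 genes with a mean of at least 0.5 FPKM was fitted in R 4.3.3 with limma 3.58.1 (lmFit, eBayes with trend), with Benjamini-Hochberg adjustment over all of them. The steps were tested on simulated data. DEGseq, which the study used, needs read numbers and was not run. All 7 oxidase genes passed the filter. Of 63 marker genes listed, 62 had values and 51 were tested. Beside the family, named genes were the up to 4 with the largest absolute change in each pathway list, Rhoa, Cdc42, the up to 3 highest markers per cell type, and the 5 genes nearest to Cybb and to Hvcn1; other genes were named after their values were seen. Some listed genes are counted but not reported here. Members and lists were chosen with earlier results of these data known. The fit was repeated with pseudocounts of 1 and 0.01, without the filter, with a mean of at least 5 FPKM, with each library scaled to 1000000 (TPM), haemoglobin genes removed, median-of-ratios scaling, no trend, a replicate block and each library left out. Positions came from GENCODE M21 and promoters from RefSeq. Python 3.11.15 and matplotlib 3.10.9 were used for plots.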

Additional observations from a re-analysis of the deposited data

How the results depend on the processing

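The count of oxidase genes called lower, 5 on the deposited scale, was 0 without the filter, under median-of-ratios scaling or once haemoglobin genes were taken out, and 2 with a mean of at least 5 FPKM, which only 4 of the 7 meet. Of the 53 listed pathway genes, 39 were tested on the deposited scale and 26 of these were called. Calls numbered 16 with a pseudocount of 1, 0 without the filter and 2 with a mean of at least 5 FPKM. They numbered 7 without haemoglobin genes and 0 under median-of-ratios scaling. All genes called numbered 2106, and 670, 0, 117, 281 and 24 under these settings in the same order. Without the filter 4978 genes, 5 oxidase genes among them, had an unadjusted p under 0.05 in limma. The oxidase median minus the all-gene median, -0.63, was -1.13 without the filter. Direction turned for Hvcn1, to 0.44 without haemoglobin genes and 0.95 under median-of-ratios scaling, with a range from -0.31 to 0.12 over the libraries left out (0.05 without Ctrl 3 and 0.12 without Nar 3), and for Rac1, to 0.14 with median-of-ratios scaling. With each library left out in turn, oxidase calls were 0 in every case, pathway calls ran from 0 to 5, all calls from 0 to 258, non-overlapping ratio pairs from 12 to 19 and the median difference from -0.82 to -0.45. The cause of these changes was not tested, except that fewer libraries or genes were tested where the setting says so.

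The groups share the replicate numbers 1 and 3, which only the titles give. Deviations of same-numbered libraries from their group means had a correlation of -0.153 across genes, so the numbers were not taken as pairs. With the replicate block, 3 oxidase genes were called, Cyba (limma adjusted p = 0.101) and Rac2 (0.0754) being lost, with 22 pathway calls and 1813 calls in all. The crossed block, chosen after seeing the data, gave 5 oxidase calls, 32 pathway calls and 2861 calls in all.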
